A study of Mus musculus with 24 samples.

Results

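ND6 was described at every listed cytosine of both strands between nucleotides 13552 and 14070 of the mouse mtDNA (mm10, chrM), where the reference annotation places the gene on the minus strand over 519 bp without an intron. The rule kept 177 of the 5829 cytosines listed in each library, 146 of them L-strand and 31 H-strand cytosines, and these are all cytosines of the reference sequence in this interval. A rate was used where at least 10 reads covered the cytosine. The measurement was the unconversion rate, the percent of reads in which a cytosine still read as C after bisulfite treatment. The 24 libraries came from 8 preparations, and they were made by post-bisulfite adaptor tagging (PBAT), in which adaptors are joined to DNA that has already been treated. ESC mtDNA (E14 cells grown in 2i-LIF on feeder cells; E1, E2 and E3), brain mtDNA (B1 and B2) and liver mtDNA (L1 and L2) of C57BL/6J mice are called native mtDNA here, and all were prepared from purified mitochondria treated with nuclease. Native mtDNA was cut with BglII to make it linear. Synthetic mtDNA (S1) was a PCR product of the same linear form, free of 5-methylcytosine (5mC). The labels give no age of the mice. E1, E2, B1, L1 and S1 were treated for 5, 15, 40 and 60 min, B2 and L2 for 60 min, and E3 for 60 and 90 min, and a library is named by preparation and minutes (E1_60). Synthetic mtDNA is 1 preparation, so nothing is known of the spread between such preparations.

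The mitochondrial genome encodes 13 proteins, and ND6, a membrane subunit of respiratory complex I (NADH dehydrogenase), is the only one of them annotated on the minus strand. Its messenger has the sequence of the G-rich H strand and the L strand is its template, whereas the messengers of the other 12 proteins have the sequence of the L strand. Bisulfite converts unmodified cytosine to uracil where the base is unpaired and leaves 5mC as C, so an unconverted cytosine is not by itself a methylated one. In ND6 the L strand held 28.1% C and 5.97% G, and the H strand therefore the reverse. Only ATP8 had a smaller share of G on the L strand, 5.88%, while ND2 had 8% and the other 10 protein genes had 9.69 to 16.1%.

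The L strand of ND6 has 31 G, which leave runs without any G and gather in segments such as those shown here. Both kinds are shown with their values below. The second kind was picked by its loss of coverage, so its low coverage is no finding about G. They are read 5′ to 3′ on the L strand from the mm10 reference, with C in capitals in the G-free runs and both C and G in capitals in the other segments. The G-free runs are chrM:13647-13721 with 33 C and chrM:13926-13996 with 24 C.
G-free run 1: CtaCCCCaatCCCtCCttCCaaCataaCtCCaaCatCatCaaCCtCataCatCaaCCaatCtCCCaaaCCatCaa
G-free run 2: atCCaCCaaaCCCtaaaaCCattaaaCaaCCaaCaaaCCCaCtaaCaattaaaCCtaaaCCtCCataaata
The segments below are stretches in which no library treated for 60 min had 10 reads on any L-strand cytosine. They are chrM:13567-13647, with 23 C and 8 G, and chrM:13823-13861, with 12 C and 7 G.
G-holding segment 1: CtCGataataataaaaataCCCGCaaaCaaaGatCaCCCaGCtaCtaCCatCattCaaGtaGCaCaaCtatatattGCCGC
G-holding segment 2: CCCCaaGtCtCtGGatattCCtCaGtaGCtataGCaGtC

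On the L strand almost every call in ND6 was unconverted, in native and synthetic mtDNA and after every duration. After 60 min the mean rate over the covered cytosines was 99.62% in E1, 99.32% in E2 and 99.60% in E3. It was 99.79% in B1 and 99.60% in B2, and 99.42% in L1 and 99.18% in L2. In synthetic mtDNA it was 99.52%, which lies inside the range of the 7 native libraries. The synthetic library S1_60 had 188 converted calls among 50136 on this strand, a pooled rate of 99.63% (95% Wilson interval 99.57 to 99.67%, counting error only). Native libraries averaged 99.50% ± 0.21 (SD, n = 7). The difference from synthetic mtDNA was -0.018 percentage points, with 4 native libraries above and 3 below the synthetic one (exact permutation test, two-sided, p = 1). With 7 preparations against 1 the smallest p is 0.125, so this design could not have reached 0.05. ESC mtDNA averaged 99.51% ± 0.16 (SD, n = 3) and the tissues 99.50% ± 0.26 (SD, n = 4), a difference of 0.014 percentage points (exact permutation test, two-sided, p = 0.943, smallest possible p 0.0286), whose sign changed with the coverage minimum and with the libraries included.

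After 5 min the same strand was at 96.10% in B1, 97.59% in L1, 97.41% in E1, 97.04% in E2 and 98.73% in S1. The synthetic library was the highest of these 5, a comparison that was not tested. After 15 min the values lay between 98.78% (E1) and 99.66% (S1), and after 40 min between 98.32% (E1) and 99.50% (L1). The rate was thus higher after 60 min than after 5 min in 5 of 5 preparations, by 0.793 to 3.69 percentage points. The mean difference was 2.16 (exact permutation test, two-sided, p = 0.00794, adjusted p = 0.0159 over the 14 tests made). With the preparation as a block the p was 0.0625 (adjusted p = 0.0972), the smallest that an exact sign-flip test of 5 pairs can give. Over the cytosines covered in all 10 of these libraries the difference was 1.08, so that the size of the rise depends on the sites that lost coverage (exact permutation test, p = 0.00794, adjusted p = 0.0159). Without B1, E1, E2 or L1 it was 1.78 to 2.24 with an adjusted p of 0.0571, and without S1 the adjusted p was 0.049. In each case the exact permutation test gave p = 0.0286, the smallest that the preparations left allow.

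The H strand of ND6, whose cytosines stand in the reading frame itself, converted. After 5 min its mean rate was 28.50% in B1, 29.29% in L1, 29.82% in E1, 31.05% in E2 and 25.59% in S1. After 15 min it was 4.11% in B1, 3.93% in L1, 11.00% in E1, 3.23% in E2 and 3.51% in S1, so that E1 stood above the other libraries. In that library the other 12 protein genes were also high on this strand, at 10.67%. After 40 min the rate was between 0.11% (E2) and 0.32% (L1). After 60 min it was 0.17% in E1, 0.07% in E2 and 0.36% in E3, 0.23% in B1 and 0.26% in B2, and 0.23% in L1 and 0.19% in L2. Synthetic mtDNA, which holds no 5mC, was at 0.23%. In S1_60 73 of 40756 calls were unconverted, a pooled rate of 0.18% (95% Wilson interval 0.14 to 0.23%). The difference between native and synthetic mtDNA was -0.012 percentage points, with native libraries on both sides of the synthetic one (exact permutation test, two-sided, p = 1, smallest possible p 0.125). That between ESC and tissue mtDNA was -0.027 (exact permutation test, two-sided, p = 0.714). From 5 to 60 min the rate fell by 28.67 percentage points, in 5 of 5 preparations (exact permutation test, p = 0.00794, adjusted p = 0.0159, and with the preparation as a block p = 0.0625, adjusted p = 0.0972). Without B1, E1, E2 or L1 the change was between -28.76 and -28.09, with an adjusted p of 0.0571 (exact permutation test, p = 0.0286, the smallest then possible).

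**Figure D1:**
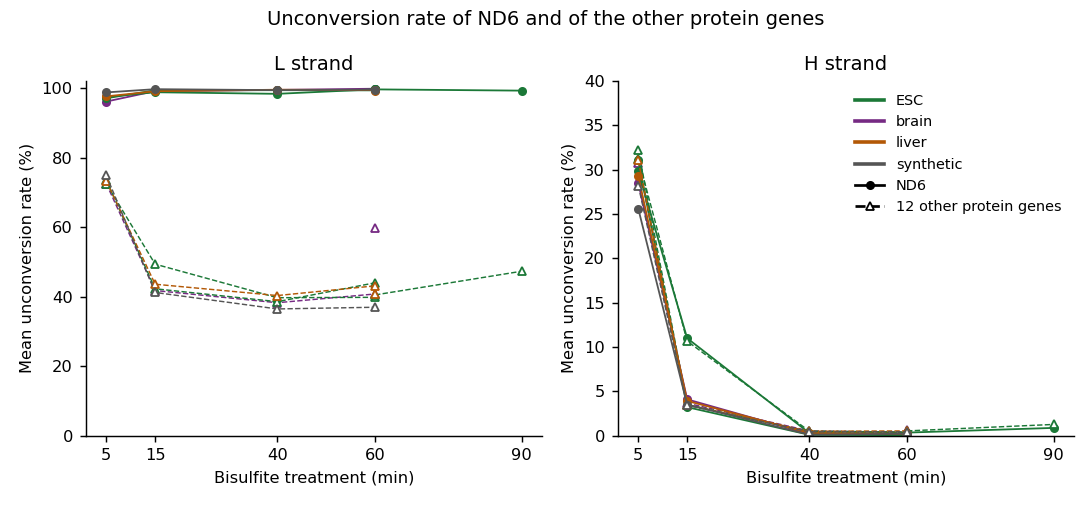
Mean unconversion rate (%) of the L and H strands against the duration of bisulfite treatment (min), with a filled circle for ND6 and an open triangle for the mean of the other 12 protein genes in each library, coloured by source, and lines joining the libraries of 1 preparation. On the L strand all ND6 points lie between 96.10 and 99.79%, above every triangle, and on the H strand ND6 goes from 25.59 to 31.05% at 5 min to 0.07 to 0.36% at 60 min. The open triangle at 59.83% at 60 min is B2_60.

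Against the other protein genes ND6 stood at the end of the order on both strands after 40 and 60 min, but not after 5 and 15 min. On the L strand after 60 min ND6 averaged 99.51% ± 0.19 (SD, n = 8), followed by ATP8, a small subunit of ATP synthase, with 98.97% ± 1.48. These 2 neighbours did not differ beyond their spread, since ND6 was the higher of them in 3 of 8 libraries. ND2, another complex I subunit, was next with 79.22% ± 7.23, and below it came ND4 with 66.87% ± 8.68, ATP6 with 61.38% ± 16.20 and ND5 with 51.95% ± 6.45. At the other end were COX3 with 3.47% ± 0.92 and COX1 with 2.58% ± 0.91, subunits of cytochrome c oxidase. ND6 was above ND2 and each of the 10 genes after it in 8 of 8 libraries.

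The mean of the other 12 genes was 36.96% in S1_60 and 39.81 to 59.83% in the native libraries of 60 min. ND6 exceeded it by 56.29 percentage points on average, by 39.8 in B2_60 and by at most 62.6, in 8 of 8 libraries (exact sign-flip permutation test, two-sided, p = 0.00781, adjusted p = 0.0159). The difference from ND5, the gene whose end overlaps that of ND6 by 14 nt, was 47.56 percentage points (35.3 to 54.5, 8 of 8 libraries), and 28.10 with reads pooled over sites. That from CYTB, the next protein gene on the other side, was 63.20 (29.4 to 70.9, 8 of 8 libraries), but 41.12 with pooled reads and 33.23 over cytosines covered in all 8 libraries. Both had the same p and adjusted p as the first test, also under these settings. Without B1, E1, E2 or L1 the differences from the 12 genes, ND5 and CYTB were 55.79 to 56.43, 46.57 to 48.35 and 62.16 to 63.28, and the adjusted p was 0.0547. After 5 min ND6, with 97.37% ± 0.95 (SD, n = 5), was below ATP8 with 98.99% ± 0.14 and above the other 11 genes in 5 of 5 libraries. It was then 24.05 percentage points above the 12 genes, in 5 of 5 libraries (exact sign-flip permutation test, p = 0.0625, the smallest possible, adjusted p = 0.0972). While ND6 gained, these 12 genes went from 72.48 to 74.87% down to the values above, so the distance between them grew with duration, which was not tested as a difference of its own.

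On the H strand after 60 min ND6 had the lowest mean of the 13 genes, 0.22% ± 0.08 (SD, n = 8), with ATP8 at 0.23% ± 0.07 and ND4 at 0.26% ± 0.03 directly above it and within its spread. ND3 was the highest with 0.96% ± 0.29. ND6 was below the mean of the other 12 genes in 8 of 8 libraries, with differences of -0.381 to -0.155 percentage points and a mean of -0.262 (exact sign-flip permutation test, two-sided, p = 0.00781, adjusted p = 0.0159). Without B1, E1, E2 or L1 it was -0.277 to -0.253 (exact sign-flip permutation test, p = 0.0156, the smallest then possible, adjusted p = 0.0547). After 5 min ND6 was below the 12 genes on this strand by 1.85 percentage points, in 5 of 5 libraries (exact sign-flip permutation test, p = 0.0625, the smallest possible, adjusted p = 0.0972), and by 1.09 over CH sites alone. After 15 min it was above them in 4 of 5 libraries and had rank 3 of the 13 genes, with 4.11% against 3.67% in B1, 3.93% against 3.48% in L1, 11.00% against 10.67% in E1 and 3.51% against 3.43% in S1, but 3.23% against 3.52% in E2, which was not tested. Among the 17 genes with at least 5 covered L-strand cytosines in all 24 libraries, the one most like ND6 was ATP8, whose L-strand rate differed from that of ND6 by 1.53 percentage points on average. ND2 followed with 16.25 and ND4 with 28.97.

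**Figure D2:**
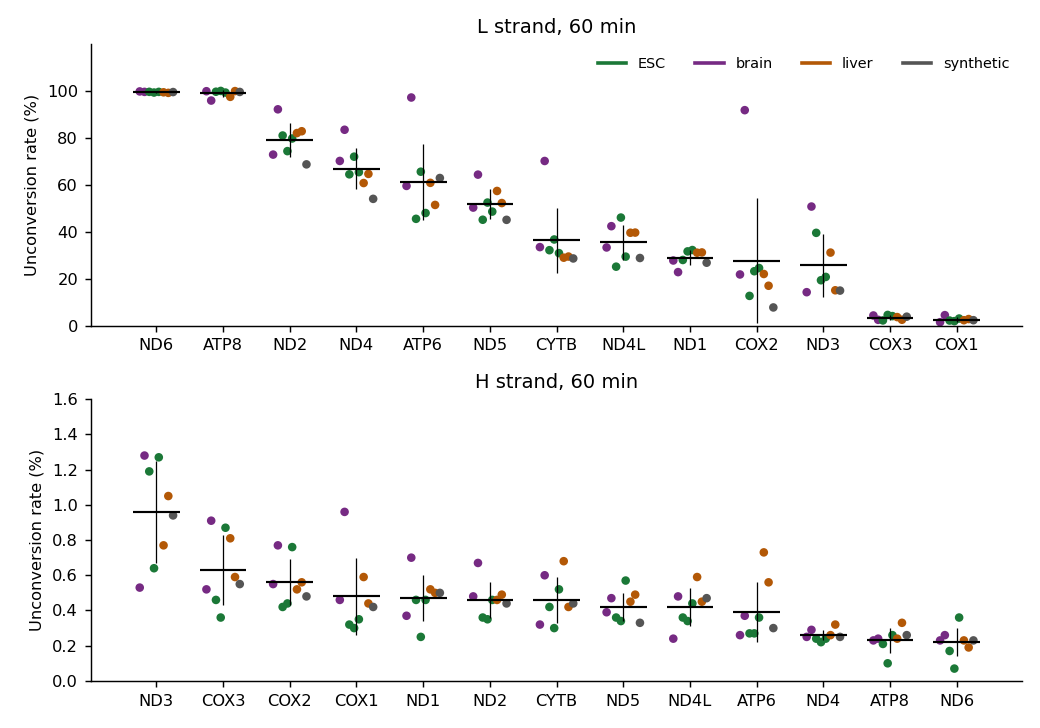
Unconversion rate (%) of the 13 protein genes after 60 min on the L strand (top) and the H strand (bottom, a scale ending at 1.6%), with 1 point per library coloured by source, a bar for the mean and a vertical line for ± 1 SD (n = 8). ND6 is first on the L strand, level with ATP8, and last on the H strand. The brain point far above the others in COX2, CYTB and ATP6 is B2_60.

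Covered cytosines were lost from the L strand of ND6 with duration, and from its H strand none were. After 5 min 146 of the 146 L-strand cytosines were covered in B1 and E1, 144 in L1 and 143 in E2 and S1. After 15 min the numbers were 112 in B1, 101 in L1, 118 in E1, 105 in E2 and 116 in S1. After 40 min they were 105 to 107. After 60 min they were 106 in E1, 98 in E2, 107 in E3, 108 in B1, 97 in B2, 105 in L1, 109 in L2 and 109 in S1. Most of the loss had thus occurred by 15 min. The share of covered L-strand cytosines fell by 26.85 percentage points from 5 to 60 min, with changes of -30.8 to -23.3 in single preparations (exact permutation test, two-sided, p = 0.00794, adjusted p = 0.0159, and with the preparation as a block p = 0.0625, adjusted p = 0.0972). Without B1, E1, E2 or L1 the change was -27.05 to -25.86, with an adjusted p of 0.0571 (exact permutation test, p = 0.0286, the smallest then possible). Over the L strand outside ND6 the share went from 86.8 to 93.3% after 5 min to 29.4 to 78.8% after 60 min, against 97.9 to 100% and 66.4 to 74.7% in ND6.

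The median coverage of the ND6 L strand was 278.5 to 408 reads after 5 min and 41 to 250 after 60 min, and that of its H strand 268 to 430 and 128 to 835. All 31 H-strand cytosines were covered in every library. The L strand therefore had 0.851 to 1.04 times the median coverage of the H strand after 5 min and 0.182 to 0.32 times after 60 min. Converted reads were few on the L strand even before the loss. Of the calls on it 721 to 1775 were converted in the native libraries of 5 min and 390 in S1_05, against 45 to 188 in the libraries of 60 min. The libraries of 60 min also differed in total depth, from 302234 calls in B2 to 2154500 in S1 over the whole mtDNA.

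**Figure D3:**
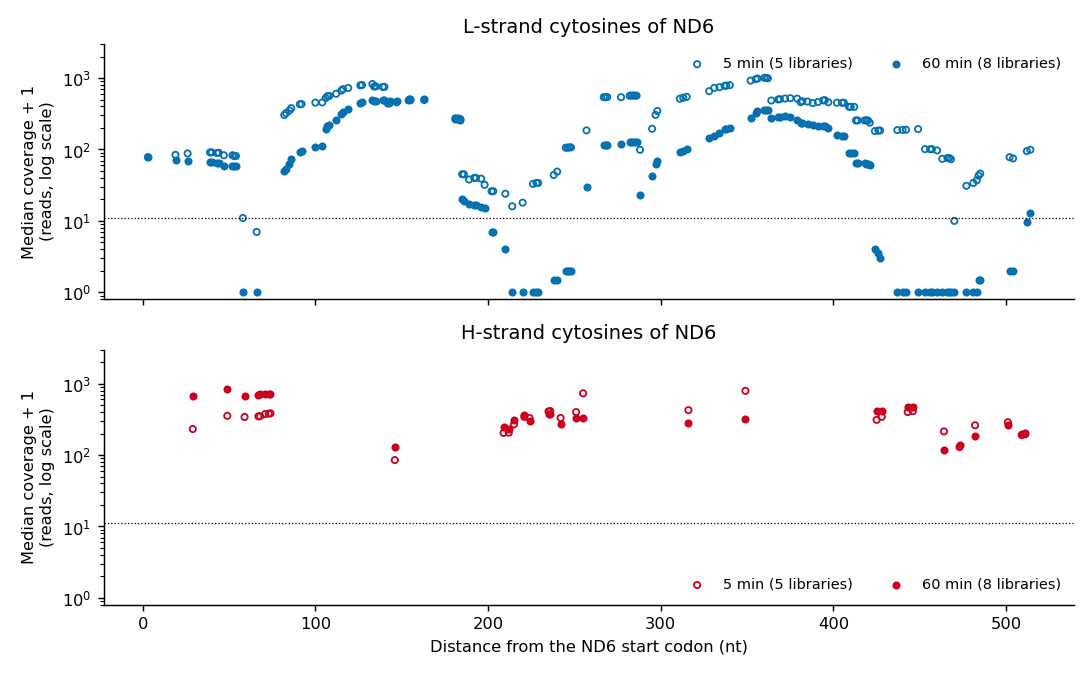
Median coverage of each ND6 cytosine plus 1 (reads, log scale) against its distance from the start codon (nt), for the L strand (top, 146 sites) and the H strand (bottom, 31 sites), with open circles for the 5 libraries of 5 min and filled circles for the 8 libraries of 60 min. The dotted line marks a coverage of 10, and 3 groups of L-strand sites drop to or near 0 reads at 60 min while the H-strand sites stay above the line.

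The loss fell on a few segments. After 60 min 97 of the 146 L-strand cytosines were covered in all 8 libraries, 12 in 1 to 7 of them and 37 in none. The G-holding segments were bounded by this loss. Of the 37 sites, 23 lay in G-holding segment 1, where the median coverage went from 80 reads after 5 min to 0 (at most 8 in any library). Another 12 lay in G-holding segment 2, with 48 reads after 5 min and 0 after 60 min (at most 9). The remaining 2 were at 14005 and 14013. Not every stretch near G lost its coverage. The 11 L-strand cytosines from 14017 to 14068 were covered in all 8 libraries, in a stretch that itself holds 2 G. Within 25 nt of position 14022, near its start, there are 8 L-strand G. They include 14022 itself, and most of them lie before the stretch. G-free run 1 lies directly after the first segment and shares its first C, 13647, with the end of it. That run had a median of 457 reads after 5 min and 177.5 after 60 min, and 256 of its 264 values, 33 cytosines in 8 libraries, came from covered cytosines. G-free run 2 had 589.5 and 249 reads, and 192 of 192 values were covered.

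In rate these segments can be compared only after 5 min, since the G-holding segments were picked by their lack of coverage after 60 min. G-free run 1 averaged 98.54% after 5 min and 99.58% after 60 min, and G-free run 2 99.82% and 99.76%. After 5 min, when most cytosines of the G-holding segments were still covered, these segments averaged 93.26% and 96.46%. The sites that were later covered in no library averaged 94.43% ± 2.17 (SD, n = 5) after 5 min, and those later covered in all 8 libraries 98.55% ± 0.56. Below the coverage minimum, the 37 sites without coverage had 236 calls in all after 60 min over the 8 libraries, of which 209 were unconverted. The 27 converted calls were all in B2 (6 of 10), L2 (12 of 43) and S1 (9 of 39). L-strand cytosines outside ND6 that were covered in no library of 60 min had 8216 calls, 35.3% of them unconverted.

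The lowest single sites of the L strand after 5 min lay in G-holding segment 1. Cytosine 13594 was at 55.7% in B1 (61 reads), 73.3% in E1 (30 reads), 53.1% in E2 (32 reads), 77.8% in L1 (18 reads) and 93.3% in S1 (15 reads). Cytosine 13588, which is in a CG, was at 63.8% in B1, 81.6% in E1, 63.9% in E2, 71.4% in L1 and 86.4% in S1. Synthetic mtDNA was the highest of the 5 at both, and at the first it also had the fewest reads. With 13590, 13586 and 13587, at 74.18, 78.20 and 79.26%, these are the 5 lowest sites, all within 9 nt, so that they are not independent of each other. After 60 min they had a median coverage of 0 or 0.5 reads and no rate. Of all 146 sites 139 averaged 90% or more after 5 min.

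The count of G around a cytosine went with the coverage inside and outside ND6, and outside ND6 also with the rate. ND6 L-strand cytosines with no G within 25 nt on either side had a median coverage of 202.5 reads after 60 min, those with 1 to 2 G had 179.5, those with 3 to 4 had 5 and those with 5 or more had 1. Their rates, over the sites covered, were 99.68% ± 0.16, 99.40% ± 0.28, 99.61% ± 0.47 and 99.51% ± 0.39 (SD, n = 8). Outside ND6 the median coverage in the same classes was 300, 44.5, 14 and 11 reads, and the L-strand rates were 94.43% ± 1.86, 78.32% ± 3.06, 48.47% ± 4.11 and 6.91% ± 0.73. The largest gap was therefore in the class with 5 or more G, where 12 to 15 of the 41 ND6 cytosines were covered. In that class alone ND6 was at 98.95 to 100% in the 8 libraries. ND5 was at 16.36 to 30.66% in it, and CYTB at 6.10 to 10.50%, apart from 42.74% in B2_60. The difference from the mean of the other protein genes with covered sites in this class, 10 to 12 by library, was then 77.52 percentage points. From ND5 it was 78.33 and from CYTB 86.67 (exact sign-flip permutation test, two-sided, p = 0.00781 and adjusted p = 0.0159 for each). This restriction was chosen after seeing the data, and the adjustment does not count it as further tests, so these p are descriptions only. After 5 min, with 39 to 41 of the 41 cytosines covered, ND6 was at 96.54 to 98.85% in this class and the other 12 genes at 66.17 to 68.47%. Across the 146 cytosines the correlation of G count with median coverage was r = -0.64 (Spearman's rho = -0.78) after 60 min, and that with the rate over the 109 covered sites was r = -0.04 (rho = 0.01). Neighbouring sites share reads and most of their window, so these are descriptions only.

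**Figure D4:**
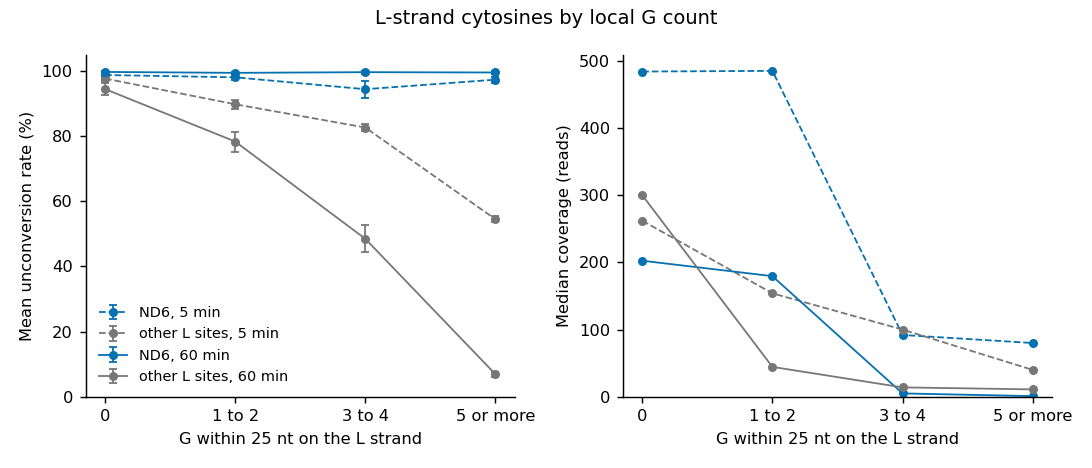
L-strand cytosines grouped by the number of G within 25 nt, with the mean unconversion rate (%, left, error bars ± 1 SD over libraries) and the median coverage (reads, right), for ND6 (blue) and all other L-strand cytosines (grey) after 5 min (dashed, n = 5) and 60 min (solid, n = 8). The ND6 rate stays at 94.38% or more in every class while that of the other sites falls to 6.91%, and the ND6 coverage at 60 min falls from 202.5 reads to 1.

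The stretch of unconverted L-strand cytosines reached beyond the gene on both sides. Counting neighbouring cytosines that were covered in at least 5 of 8 libraries and averaged 90% or more after 60 min, it ran from 13142 to 14198, over 1057 nt and 194 cytosines. Of these 106 were in ND6. It spanned 410 nt of ND5 and, past the other end of ND6, the tRNA gene TrnE (14071 to 14139) and the start of CYTB, 128 nt in all. Cytosines without that coverage were passed over, among them the 37 ND6 sites that no library of 60 min covered. In a bin of 50 nt over part of TrnE, the 10 L-strand cytosines had a median of 0 reads and no rate. By number of cytosines the whole stretch was the longest such one of the mtDNA, the next having 48 (11774 to 11936, in ND5). At both edges the rate changed from 1 counted site to the next. The 3 sites before it, from 13107 to 13110, were at 1.06 to 1.69%, and its first site, 13142, was at 99.29%. Its last site, 14198, was at 91.04% and the next sites counted, from 14261 to 14274, were at 0.00%. Between these the bin of 50 nt had 17 L-strand cytosines with a median of 3 reads and a rate in 4 libraries only. How steep this edge is was therefore not resolved. Both edges had few reads after 60 min, with a median of 21.5 at 13142 and 11.5 at 14198. On the H strand the same flanks showed no such change, with mean rates of 0.05 to 0.86% in bins of 50 nt.

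**Figure D5:**
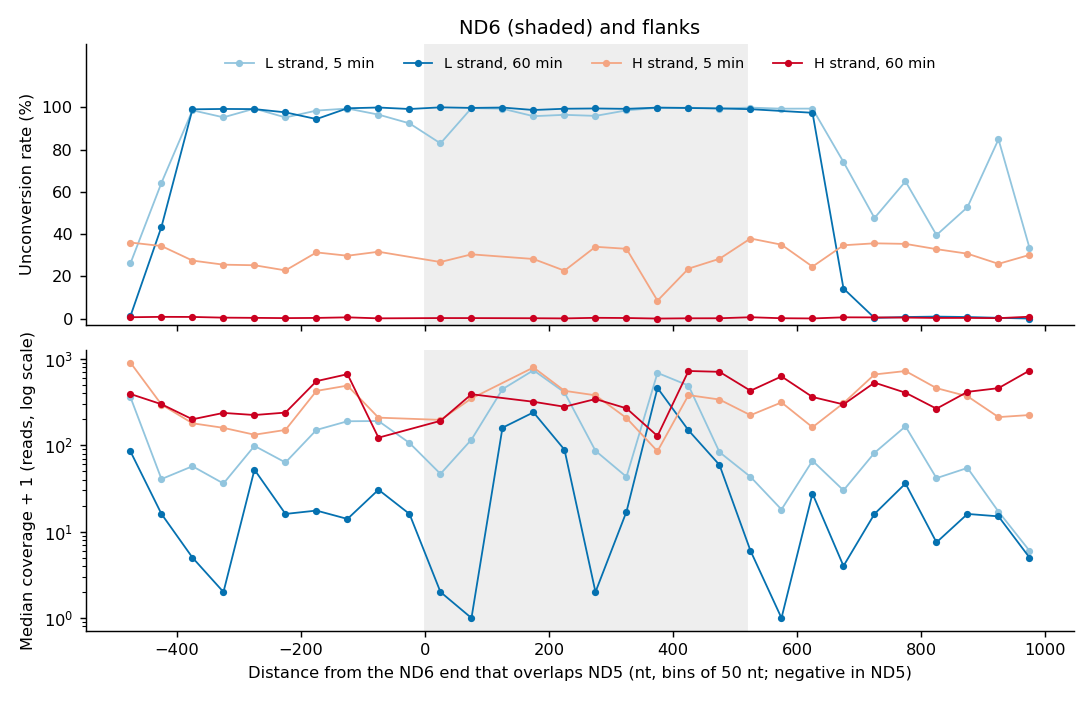
Unconversion rate (%, top) and median coverage plus 1 (reads, log scale, bottom) in bins of 50 nt along ND6 (shaded) and its flanks, against the distance from the end of ND6 that overlaps ND5 (nt), for each strand after 5 and 60 min. After 60 min the L strand is at 94.45% or more, in every bin with a rate, from 400 nt inside ND5 to past the far end of ND6. It falls to 14.22% and then 0.30% on that side and to 1.18% at the other. It drops to a median of 0 reads in 2 of the bins shown, 1 inside ND6 and 1 past its far end without a rate.

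ND6 holds 6 CG on each strand, and 5mC in nuclear DNA of mammals is mostly found in this context. On the L strand the 6 CG cytosines averaged 92.14% ± 3.46 after 5 min (SD, n = 5) and the 140 others 97.60% ± 0.86. After 60 min only 1 or 2 of the 6 were covered in a library, since 4 of them lie in the G-holding segments. The cytosine at 13924 was the one covered in all 8 libraries, at 99.8 to 100%, and the one at 13559 was at 100% in the 4 libraries that covered it. On the H strand the CG cytosines were at 25.41% ± 3.04 and the others at 29.68% ± 1.86 after 5 min, and at 0.16% ± 0.16 and 0.23% ± 0.08 after 60 min. L-strand CG cytosines outside ND6 went from 51.49% ± 0.92 to 8.0% ± 0.58. By codon position of the ND6 frame, the H-strand cytosines were at 0.18, 0.24 and 0.16% after 60 min at positions 1 (7 sites), 2 (22 sites) and 3 (2 sites). These differences were within the spread over libraries.

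Single cytosines of the H strand differed more at 5 min than at 60 min. The highest at 5 min was 13816, at 44.0% in B1, 47.3% in E1, 54.1% in E2, 47.3% in L1 and 26.9% in S1, on 368 to 819 reads. The lowest was 13925, a CG cytosine, at 6.3% in B1, 3.6% in E1, 19.4% in E2, 11.9% in L1 and 1.1% in S1, on 59 to 111 reads. Both are shown 5′ to 3′ on the H strand with the cytosine in capitals, since the range of the strand at this duration lies between them.
H-strand cytosine 13816: ggggatctaaCtgattaattt
H-strand cytosine 13925: tttggtggatCgtttttaggt
After 60 min 13816 was at 0.28% ± 0.28 and 13925 at 0.00% in all 8 libraries, where 54 to 247 reads covered it. The 5 highest sites after 60 min were 13835 with 0.62% ± 0.35, 13560, 13562 and 13836 with 0.43%, and 13829 with 0.40%. At 13835 the values were 1.1% in E1, 0.0% in E2, 0.5% in E3, 0.9% in B1, 0.7% in B2, 0.7% in L1, 0.3% in L2 and 0.8% in S1. The synthetic value lies among the native ones. No H-strand value of ND6 exceeded 1.8% in any library of 60 min. At the median site 3 unconverted reads corresponded to 0.359 to 2.34% in these libraries, so lower rates were not detectable at single sites.

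The lowest L-strand sites after 60 min, among those covered in at least 5 libraries, were 13875 with 96.43% ± 4.58, 13731 with 97.58% ± 1.31, 13707 with 97.64% ± 0.75, 13711 with 97.84% ± 0.96 and 13709 with 98.00% ± 0.98. The first rests on 11 to 34 reads in the 6 libraries that covered it. The others lie at the end of G-free run 1 and 10 nt after it, on 89 or more reads at 13731. At 13731 the value was 97.7% in E1, 94.8% in E2, 96.7% in E3, 98.4% in B1, 98.9% in B2, 97.8% in L1, 97.7% in L2 and 98.6% in S1, so native and synthetic mtDNA overlapped. After 5 min the same site was at 90.1 to 96.8%.

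Each cytosine was also compared between native and synthetic mtDNA after 60 min, over the whole mtDNA. The reads of the native preparations were added up and set against those of synthetic mtDNA by Fisher's exact test, with Benjamini-Hochberg adjustment over 4129 sites, of which 42, or 1.02%, were called at an adjusted p under 0.05 (1.77% of the L-strand and 0.107% of the H-strand sites). Reads added up in this way hide the variation between preparations, so these counts treat reads as the replicates. Of the 137 ND6 sites tested, 106 of the L strand and 31 of the H strand, 0 were called, and 3 had an unadjusted p under 0.05, against 7.07% of all sites. The smallest p was at L-strand cytosine 13709, with 98.0% in native and 99.3% in synthetic mtDNA (adjusted p = 0.29). With limma, fitted to empirical logits by preparation, 0 of 2902 sites were called anywhere, so the count of 0 in ND6 is no result about the gene. With it 16 of the 128 ND6 sites had an unadjusted p under 0.05, against 9.20% of all sites tested. Between ESC and tissue mtDNA limma called 0% of 2902 sites and hence 0 of the 128 ND6 sites, 3 of which had an unadjusted p under 0.05 (4.14% of all sites). Fisher's exact test also called 0 of the 2902 sites, with 1 such site in ND6 (3.89% of all). At the median covered L-strand site of a 60 min library 3 converted reads corresponded to 0.836 to 4%, so a difference between sites of that size or less was not detectable in single libraries. The 37 ND6 sites that no library of 60 min covered had no rate to compare.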

How the data were processed

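The authors sequenced 24 PBAT libraries, trimmed the reads with Trim Galore, aligned these to the mm10 mitochondrial sequence using Bismark in its mode for PBAT and scored cytosines per strand with their own scripts. For each cytosine the deposited files give the percent of reads that stayed unconverted, to 1 decimal, and the coverage as a count of reads, neither corrected for incomplete conversion nor normalised. The study dropped any read that was 90% or more unconverted. The files analysed here hold no single reads, and L-strand sites at 90% or more are frequent in them, so the values appear to come from before that step. The study named ND6 among the genes where the dropped reads had high coverage. Its supplement raises the possibility that such reads are copies made from H-strand fragments without cytosine. These would align to the L strand, where such stretches hold no G, and count as unconverted. For the ND6 calls none of these explanations was tested.

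Unconverted reads were taken as percent times coverage, rounded. Sites with a coverage of at least 10 were used, and a gene's rate is the mean over its covered sites. Libraries of 60 min, 1 per preparation, were compared with exact permutation tests (14 tests, Benjamini-Hochberg). Single sites were compared with Fisher's exact test (scipy 1.17.1) and limma 3.58.1 on empirical logits (offset 0.5), both tried on simulated counts. These counts had no variation between libraries and far larger shifts than the ND6 differences, so they say nothing of differences of that size. Calls per library numbered 257028 to 2260572. Wilson intervals cover counting error only, and calls of 1 read are not independent. Members, lists and tests were chosen with earlier results of these data known. The sites named are the 5 highest H-strand and 5 lowest L-strand sites after 60 min, the same at 5 min with the 5 lowest H-strand sites, the CG sites, and sites the tests called. Genes and sequences were read from RefSeq's GRCm38.p6. Libraries of 1 preparation at 5 and 60 min share a template by their labels, although their deviations from the mean over sites correlated only from -0.05 to 0.15. Alternatives were coverage minimums of 20 and 30, pooled reads, shared sites, CH sites only, the ND5 overlap left out, each preparation left out, a replicate block and another site test.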

Additional observations from a re-analysis of the deposited data

Results flagged for a closer look

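Mean rates, covered shares and median coverages of ND6 in the native libraries of each duration, 24 groups of values in all, were searched for a library far from the others. Chance alone flags about 1 in 20 groups, so a flagged library among 24 groups is not unusual in itself. The H strand of E1_15 stood at 11.00%, against 3.23 to 4.11% in the other native libraries of 15 min, and the other protein genes of that library were at 10.67% on this strand. The L strand of E1_40 stood at 98.32%, against 99.37 to 99.50% in the other native libraries of 40 min. E1_40 had the most calls of all libraries, 2260572. Whether depth has a part in either value was not tested.

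E3_90, the library of 90 min, entered no comparison. Its H-strand rate in ND6 was 0.89%, above the 0.07 to 0.36% of the libraries of 60 min and above the 0.23% of synthetic mtDNA after 60 min. It had the fewest calls of all libraries, 257028, and 28 of its 3380 H-strand calls in ND6 were unconverted, or 0.83% (95% Wilson interval 0.57 to 1.19%). Its other protein genes were at 1.28% on this strand. Its L strand in ND6 was at 99.24%, with 98 of 146 cytosines covered. No other preparation was treated for 90 min, so duration and library cannot be told apart.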

How the results depend on the processing

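Of 200 recomputed values, 155 kept their direction and their side of the threshold, but part of these could not have changed. The change in covered share of the H strand was 0 under every setting, so it had no direction. Native minus synthetic differences could change only in direction (exact permutation test, smallest possible p 0.125). The same holds for the differences from the other protein genes after 5 min (exact sign-flip permutation test, smallest possible p 0.0625). The count of 155 is therefore no measure of stability. No ND6 site was called in any site test, but limma in both comparisons and Fisher's exact test between ESC and tissue mtDNA called 0 sites of the whole mtDNA. The restriction to sites with 5 or more G was chosen after seeing the data, so its unchanged direction and call are no further evidence. The ESC minus tissue difference of the L strand, 0.014 percentage points, became -0.026 and -0.040 with coverage minimums of 20 and 30, -0.145 with pooled reads, -0.010 over shared sites and -0.030 with a replicate block. With preparations left out in turn it ran from -0.091 to 0.112, and on the H strand from -0.106 to 0.036. With preparations left out, the native minus synthetic difference of the L strand ran from -0.066 to 0.036. It was -0.109 with pooled reads and -0.096 over shared sites. On the H strand this difference ran from -0.036 to 0.011 with preparations left out. There it was 0.011 with pooled reads and -0.039 with the ND5 overlap left out. These differences have no stable sign.

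With the replicate block, the differences between 5 and 60 min, 2.16 (L strand), -28.67 (H strand) and -26.85 (covered share), had an adjusted p of 0.0972. The exact sign-flip test gave p = 0.0625 for each before adjustment, the smallest that 5 pairs allow. With single preparations left out these differences ran from 1.78 to 2.50, -29.5 to -28.1 and -27.7 to -25.9. Left out likewise, the differences from ND5, CYTB and the other protein genes ran from 46.6 to 49.3, 62.1 to 68.0 and 55.4 to 58.6 on the L strand, and from -0.277 to -0.245 on the H strand. Without B1, E1, E2 or L1 the adjusted p of these 7 results was 0.0547 or 0.0571. The exact tests then gave the smallest p possible with the preparations left, 0.0156 or 0.0286. The lost call is therefore no sign that these results rest on 1 preparation. Without S1, B2, E3 or L2 these results kept an adjusted p under 0.05 where the preparation took part. The differences on the L strand moved most with pooled reads (ND5 28.10, CYTB 41.12) and over shared sites (ND5 36.92, CYTB 33.23, other protein genes 41.92), with the same call. The replicate block changed no other call.

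After 60 min 37 of the 146 L-strand cytosines have no rate in the deepest library, S1_60, nor in the others. With 1 synthetic preparation, no permutation test of native minus synthetic mtDNA could reach a p of 0.05. Reads that are unconverted throughout could not be left out.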
